A study of Mus musculus with 12 samples.

Results

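The subject is the comparison of cardiomyocytes of mice with a cardiomyocyte-specific deletion of Chaf1a with control cardiomyocytes in the RNA-seq count table marked 3M, described over all genes with enough reads to be measured. The rule that chose the genes used their level alone, and it and the gene lists were set with earlier results of these data known. Levels are in CPM, the unit of counts relative to the library total. A symbol was kept when its mean over the 6 libraries was 5 CPM or more. This held for 11242 of the 25239 symbols in the table, and these genes took 99.2% to 99.3% of the counts of each library. Of them 10996 are protein coding and 173 are long noncoding RNA genes. The table holds 3 libraries labelled Ctrl 3M, from mice with floxed alleles on both copies of Chaf1a (f/f) and no Cre, whose genotype label reads WT, and 3 libraries labelled Chaf1a cko 3M, from mice with the same floxed alleles and Myh6-Cre. Myh6-Cre is a Cre recombinase driven by the promoter of a cardiomyocyte myosin gene, so that the presence of Cre and the deletion go together in every comparison. The labels do not spell out 3M, give the tissue as heart and the same batch for all libraries, and give the RNA as total RNA of cultured cardiomyocytes, from which ribosomal RNA was depleted before stranded sequencing. Each library also carries a number that the labels do not explain, and the replicate numbers are those of the titles. Whether the replicates are separate animals is not stated, and each p-value therefore reflects library-to-library spread alone, which may be technical.

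The protein made from Chaf1a is the largest part of CAF-1, a histone chaperone that places new histones H3 and H4 on DNA behind the replication fork. Cardiomyocytes of the mouse largely stop dividing soon after birth, and many go through further rounds of DNA synthesis without cell division, which leaves polyploid or binucleated cells. The title of the study names the adaptability of mononuclear polyploid cardiomyocytes after perinatal loss of Chaf1a as its question.

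The libraries held 10569325 to 16445963 counts. Cardiomyocyte genes were present as labelled: all 14 cardiomyocyte markers, among them the myosin gene Myh6, the titin gene Ttn and the troponin gene Tnnt2, passed the level of 5 CPM, and together they took 3.72%, 4.29% and 5.02% of the counts in the controls and 6.05%, 5.73% and 5.77% among the libraries labelled Chaf1a cko 3M. With the share of Myh6 taken out, the share of these markers overlapped between the groups. In bulk RNA fewer cells of a type and less RNA per cell cannot be told apart. Ctrl 3M replicate 1 stood apart from the other 5 libraries on the first principal component of log2 levels (34.5% of the variance), and Ctrl 3M replicate 3 on the second (21.3%). Genes with a mean above 10000 counts had a median coefficient of variation of 20% among the controls and of 11.5% among the other 3 libraries. The summed level of the Y-linked check genes was 404 to 644 CPM in the controls, against 355 to 398 CPM in the libraries labelled Chaf1a cko 3M, and Xist, the RNA that coats the silent X chromosome, was at 3.97 CPM or less in every library.

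Chaf1a itself did not differ by the test between the labels. It lies on chromosome 17 from 56040416 to 56068026 in mm10, the mouse genome build of the table. Its level was 1.88, 4.74 and 9.75 CPM in the controls (replicates 1 to 3, in this order here and below), against 8.34, 5.58 and 5.54 CPM in the libraries labelled Chaf1a cko 3M. The groups overlapped, with the lowest and the highest value both in Ctrl 3M. The log2 fold change was 0.25 (standard error (SE) 0.61, with a 95% interval of -1.13 to 1.63, adjusted p 0.952 in edgeR's quasi-likelihood test). It turned to -0.16 without Ctrl 3M replicate 1 and was 0.958 without Ctrl 3M replicate 3, so these libraries give no direction for Chaf1a. The table counts reads per gene, so that exons outside the floxed part and RNA of cells lacking Cre can contribute to it. Their part in the level of Chaf1a was not tested. The counts do not show the deletion, and every direction below is that of the libraries labelled Chaf1a cko 3M over those labelled Ctrl 3M.

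Across the genome the levels of most genes lay close together in the libraries of both labels, and 2 genes passed the test. Of the 11242 genes 11232 were tested, together with 2693 genes of lower mean level, 13925 in all, and the other 10 had counts in too few libraries. At an adjusted p under 0.05 in edgeR, 1 gene rose, Apbb2, and 1 fell, Slc38a10, which is 0.0144% of all tested genes. Of the 11232 tested genes of 5 CPM or more, 9290 (82.7%) had a fitted fold change within 1.5-fold, while 180 were more than 2-fold higher and 444 more than 2-fold lower in the libraries labelled Chaf1a cko 3M. The median log2 fold change was -0.02, with a 5th percentile of -0.90 and a 95th percentile of 0.67, and the median SE was 0.28. The groups did not overlap, with all 3 libraries of one label above all 3 of the other, in 832 genes that were higher in Chaf1a cko 3M and 808 that were lower. Among all 13925 tested genes this share was 7.21% higher and 6.89% lower. Counts of list members apart between the groups, given below, are to be read beside these shares. An unadjusted p under 0.05, called nominal below, was reached by 411 of these genes in the higher and 486 in the lower direction, against 3.2% and 3.73% of all tested genes. The balance of both directions varied with the control library left out. Nominally higher and lower genes were 332 and 339 without Ctrl 3M replicate 1, 486 and 673 without replicate 2, and 509 and 638 without replicate 3. The 2-fold counts are from the fit of all libraries, in which Ctrl 3M replicate 1 stood apart as given above. The nominal test served only to describe gene groups, and no gene is called on it. DESeq2's Wald test, tried as an alternative, called 24 higher and 43 lower genes of 5 CPM or more, among them both edgeR calls.

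**Figure D1:**
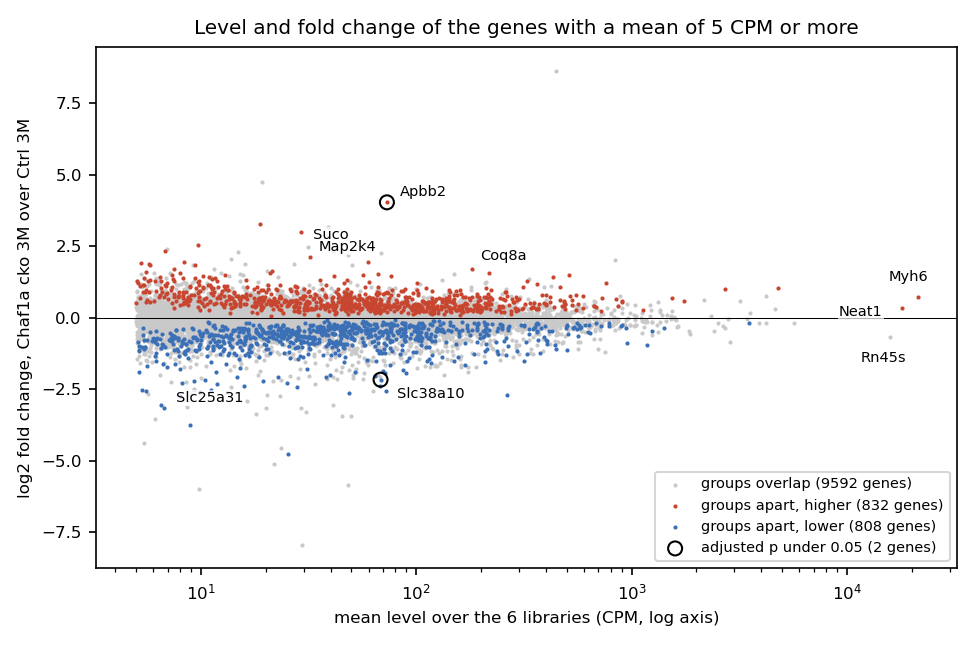
Each point is 1 of the 11232 tested genes with a mean of 5 CPM or more, with its mean level over the 6 libraries (log axis) and its log2 fold change of Chaf1a cko 3M over Ctrl 3M. Colours mark the 832 higher and 808 lower genes whose groups did not overlap, and rings mark Apbb2 and Slc38a10, which passed the test.

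The threshold of 5 CPM cut through genes of similar level. Racgap1, a regulator of cytokinesis, and Tlr2, a receptor of bacterial lipoproteins, lay just inside it at means of 5.0018 and 5.0062 CPM. Gnb1l and Pafah1b3 lay just outside at 4.9905 and 4.9946 CPM. In single libraries Racgap1 ran from 1.776 to 7.4998 CPM of the library total and Gnb1l from 3.03 to 7.39 CPM, so that the levels of genes next to the threshold overlapped. In 9737 of the 11242 genes the level was at least 5 CPM in every library.

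Apbb2 rose 16.4-fold in the libraries labelled Chaf1a cko 3M. It encodes an adaptor protein of the Fe65 family, which binds the cytoplasmic tail of the amyloid precursor protein, and lies on chromosome 5 from 66298725 to 66619064. Its level was 11.3, 9.36 and 4.64 CPM in the controls, against 143, 124 and 146 CPM in the libraries labelled Chaf1a cko 3M. The lowest library labelled Chaf1a cko 3M was thus above the highest Ctrl 3M library by an order of magnitude. The log2 fold change was 4.03 (SE 0.34, with a 95% interval of 3.26 to 4.80, adjusted p 0.0140 in edgeR). Slc38a10, a member of a family of amino acid transporters, fell to 0.223 of its control level. It lies on chromosome 11 from 120103951 to 120151351. Its level was 95.4, 130 and 109 CPM in the controls, against 22.6, 28.9 and 23.0 CPM in the libraries labelled Chaf1a cko 3M, again with no overlap. The log2 fold change was -2.17 (SE 0.22, with a 95% interval of -2.66 to -1.68, adjusted p 0.0300 in edgeR). In the annotation 2 other genes overlap Apbb2 and 1 overlaps Slc38a10, and whether strand was used in counting is unknown, so reads of overlapping genes could be counted together. Neither gene passed when any single library labelled Chaf1a cko 3M was left out, although the log2 fold change of Apbb2 stayed between 3.99 and 4.10 in those fits. Slc38a10 also did not pass without Ctrl 3M replicate 2, without Ctrl 3M replicate 3 or without robust estimation.

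The bases before the annotated starts of these genes, and of 2 sarcomere genes described below, are shown to place the calls in the genome. They come from RefSeq for GRCm38.p6, the assembly of mm10, are read 5′ to 3′ on the strand of the gene and end at the base before the start. Capitals mark GGGCGG, the GC box bound by Sp1, in the first sequence. In the other 3 they mark CTA and TAG with 4 bases of any kind between them. These letters, called the MEF2 word here, are a loose form of the sites of the muscle transcription factor MEF2. The 4 bases between are A or T in Ttn and Mybpc3. In Slc38a10 they include C, so that match is not taken as a MEF2 site. The Apbb2 window is that of a start inside the gene, at chr5:66337666-66337785 (minus strand). The Slc38a10 window is at chr11:120151352-120151471 (minus strand). The Ttn window is at chr2:76982548-76982727 (minus strand) and the Mybpc3 window at chr2:91118024-91118143 (plus strand). The Ttn and Mybpc3 windows also belong to starts inside the annotated span of the gene. That span reaches 76982557 in Ttn and begins at 91118114 in Mybpc3, so the last bases of both windows lie within it.
Apbb2: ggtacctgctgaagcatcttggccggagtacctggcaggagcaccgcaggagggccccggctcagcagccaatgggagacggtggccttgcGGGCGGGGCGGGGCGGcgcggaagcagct
Slc38a10: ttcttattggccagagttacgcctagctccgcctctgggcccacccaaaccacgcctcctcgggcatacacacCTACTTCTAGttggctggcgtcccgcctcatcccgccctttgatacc
Ttn: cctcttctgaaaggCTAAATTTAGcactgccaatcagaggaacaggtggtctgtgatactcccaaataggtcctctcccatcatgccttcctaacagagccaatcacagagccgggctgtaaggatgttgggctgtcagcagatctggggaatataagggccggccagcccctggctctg
Mybpc3: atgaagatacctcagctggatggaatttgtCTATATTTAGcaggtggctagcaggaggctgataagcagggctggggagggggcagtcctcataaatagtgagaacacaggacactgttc
On either strand of the 250 bases before the start, GGGCGG was present in 32.7% and the MEF2 word in 3.2% of the 32851 start windows of the RefSeq table. Among the adult sarcomere genes the MEF2 word was present in 6 of 38 windows of 27 genes, among the ion channel genes in 0 of 16 windows and among the calcium handling genes in 1 of 23. Each sequence shown was marked for its own word only. The Slc38a10 window also holds GGGCGG on the other strand, as ccgccc, which is unmarked. A match describes these letters only and shows no binding.

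Below these calls, 8 higher genes whose groups did not overlap had the smallest p-values. Map2k4, a kinase that activates the stress kinase JNK, was at 9.38, 14.8 and 11.8 CPM in the controls, against 59.3, 49.0 and 48.2 CPM in the libraries labelled Chaf1a cko 3M (log2 fold change 2.12, SE 0.26). Suco, which encodes a SUN domain protein known from bone formation, was at 9.94, 6.10 and 3.60 CPM against 45.9, 54.5 and 54.3 CPM (2.98, SE 0.37). Coq8a, an atypical kinase of mitochondria that is needed for coenzyme Q synthesis, was at 67.7, 105 and 80.0 CPM against 286, 280 and 266 CPM (1.72, SE 0.22). In all 3 genes the values labelled Chaf1a cko 3M lay within a narrow band far above the controls, at an adjusted p of 0.0715 each in edgeR. Myom2, the myomesin that cross-links thick filaments at the M-band, was at 205, 269 and 335 CPM against 729, 660 and 883 CPM (1.49, SE 0.23). Ndrg4, a gene of the N-myc downstream-regulated family that is active in heart and brain, was at 173, 297 and 238 CPM against 571, 596 and 723 CPM (1.42, SE 0.24). The other 3 serve nuclear export and protein turnover. Xpo6, the exportin of actin, had a log2 fold change of 1.18, Psme4, the PA200 activator of the proteasome, of 0.95, and Uba3, the catalytic subunit of the enzyme that activates NEDD8, of 1.49. Adjusted p-values of these 5 genes in edgeR ran from 0.282 for Myom2 to 0.416 for Uba3.

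The 8 lower genes of this kind had varied roles. Arf6, a small GTPase of membrane traffic at the cell surface, was at 283, 318 and 270 CPM in the controls, against 149, 113 and 122 CPM in the libraries labelled Chaf1a cko 3M (log2 fold change -1.18, SE 0.19). Scn7a, an atypical sodium channel, was at 140, 91.1 and 123 CPM against 51.5, 47.0 and 49.5 CPM (-1.26, SE 0.21). The groups were well apart in both, and neither passed (adjusted p 0.3 each in edgeR). Lilr4b, an immunoglobulin-like receptor of myeloid cells, was at 41.8, 36.7 and 45.6 CPM against 18.8, 13.4 and 13.8 CPM (-1.43). Casp12, a caspase linked to the endoplasmic reticulum and inflammation, was at 122, 108 and 176 CPM against 43.1, 50.1 and 58.4 CPM (-1.42). Aspn, which encodes the matrix proteoglycan asporin, had a log2 fold change of -1.38, Nectin3, a cell adhesion gene, of -2.06, and Slc25a31, an ADP and ATP carrier known from testis, of -3.16 at 1.59 CPM or less in each library labelled Chaf1a cko 3M. Slc25a31 reached the mean of 5 CPM only through the controls. Wt1, a transcription factor of the epicardium, was at 120, 52.3 and 74.0 CPM against 26.2, 24.8 and 14.7 CPM (-1.91, SE 0.36). Adjusted p-values of these genes in edgeR reached 0.458. All 16 genes were among the 67 of 5 CPM or more that DESeq2's Wald test called.

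**Figure D2:**
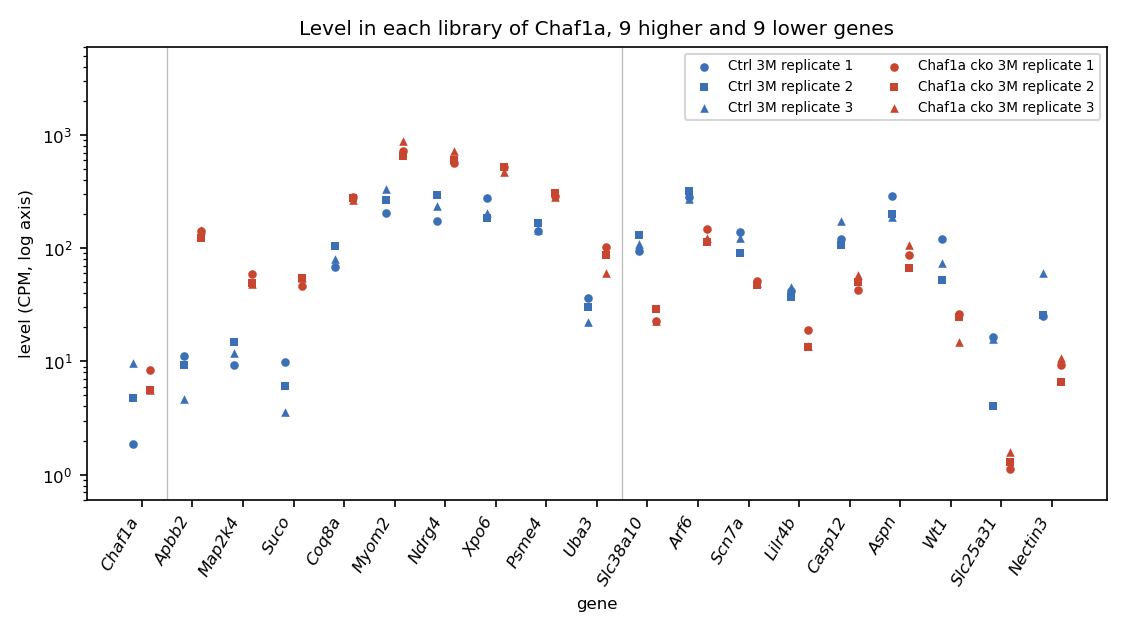
Level in CPM (log axis) in each of the 6 libraries, with Ctrl 3M in blue and Chaf1a cko 3M in red and a symbol per replicate number, for Chaf1a, for Apbb2 and 8 genes that were higher, and for Slc38a10 and 8 that were lower in the libraries labelled Chaf1a cko 3M. Chaf1a overlaps between the groups, at 1.88 to 9.75 and 5.54 to 8.34 CPM, and the other 18 genes do not.

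Genes of the sarcomere, the contractile unit of muscle, took a larger share of the counts in the libraries labelled Chaf1a cko 3M. Most of the difference in share was that of Myh6, and the single members varied. The share of the 34 adult sarcomere genes was 4.82%, 5.23% and 6.22% in the controls and 7.17%, 7.14% and 7.08% among the libraries labelled Chaf1a cko 3M, with no overlap. None of the 34 rose or fell at the adjusted threshold. In 9 the groups were apart and higher and in 0 apart and lower, 8 were nominally higher and 1 nominally lower, and the median log2 fold change was 0.07 against -0.02 over all tested genes. Myh6, the main myosin heavy chain of the adult mouse heart and the gene with the most counts over the 6 libraries, was at 13250, 18090 and 17300 CPM in the controls, against 26800, 29220 and 23360 CPM in the libraries labelled Chaf1a cko 3M (log2 fold change 0.71, SE 0.19). All 3 control libraries were thus lower than all 3 others, and Myh6 alone took 1.25% to 1.86% of the counts in the controls and 2.38% to 2.92% among the libraries labelled Chaf1a cko 3M. With the share of Myh6 taken out, the share of the list overlapped between the groups. Ttn, the molecular spring titin, was at 4518, 3664 and 1232 CPM against 6977, 6127 and 6064 CPM (1.03, SE 0.43), where the low value of Ctrl 3M replicate 3 widened the error. The thin filament genes Tnnt2, Tnnc1, Tnni3, Actc1 and Tpm1 and the myosin light chain genes Myl2 and Myl3 overlapped between the groups. Tnnt2, cardiac troponin T, had a log2 fold change of 0.30 (SE 0.19), and Myl2, the ventricular myosin light chain, was at 4008, 3119 and 6295 CPM against 4083, 3327 and 4364 CPM (-0.19, SE 0.27). The median of the list was 0.18 without Ctrl 3M replicate 1 and 0.20 without Ctrl 3M replicate 3.

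Slow and fetal isoforms of the sarcomere did not share a direction. Of 15 genes 3 were nominally higher and 1 nominally lower, at a median of -0.14, and 0 passed the adjusted threshold. Myh7, the slow myosin heavy chain of the fetal ventricle, was at 1182, 889 and 1457 CPM in the controls, against 1461, 1568 and 2639 CPM in the libraries labelled Chaf1a cko 3M (log2 fold change 0.68, SE 0.28). Myh7 reads per kilobase were 6.51%, 3.70% and 6.17% of those of Myh6 and Myh7 together in the controls and 4.08%, 4.02% and 8.10% among the libraries labelled Chaf1a cko 3M, so the ratio of both myosins overlapped. Myh7b, a related slow myosin gene, was at 256, 565 and 549 CPM against 1142, 1085 and 952 CPM (1.21, SE 0.30). Myl1, the myosin light chain of fast skeletal muscle, lay in the other direction at 43.3, 33.3 and 48.4 CPM against 18, 3.27 and 4.78 CPM (-2.28, SE 0.64). Myh7b, Myl1 and Myom2 were among the DESeq2 calls.

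Calcium release genes were higher in part. Of 25 calcium handling genes 5 were apart and higher and 0 apart and lower, 4 were nominally higher and 1 nominally lower, and 0 passed the adjusted threshold (median log2 fold change -0.06). Srl, sarcalumenin, a calcium-binding protein of the sarcoplasmic reticulum, was at 154, 163 and 174 CPM in the controls, against 241, 291 and 256 CPM in the libraries labelled Chaf1a cko 3M (0.68, SE 0.18). Casq2, cardiac calsequestrin, was at 223, 167 and 196 CPM against 325, 297 and 307 CPM (0.67, SE 0.19). Ryr2, the calcium release channel, was at 247, 263 and 339 CPM against 596, 347 and 518 CPM (0.78, SE 0.25). In each of the 3 the lowest library labelled Chaf1a cko 3M was above the highest Ctrl 3M library, by the least in Ryr2. Atp2a2, the calcium pump that refills the store and the member with the most counts, was at 1593, 1399 and 1849 CPM against 1880, 1496 and 1279 CPM (-0.06, SE 0.21). The median of the list turned to 0.08 without Ctrl 3M replicate 1 and to 0.04 without Ctrl 3M replicate 3.

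Ion channels took 0.220%, 0.238% and 0.252% of the counts in the controls and 0.313%, 0.292% and 0.285% among the libraries labelled Chaf1a cko 3M. Of 27 channel and conduction genes 21 had a log2 fold change above 0, and 0 passed the adjusted threshold (median 0.16). Of these 27 genes 5 were apart and higher and 2 apart and lower, against 7.21% and 6.89% of all tested genes. Kcnh2, the potassium channel of the rapid repolarizing current, was at 62.1, 58.5 and 59.2 CPM in the controls, against 121, 97.6 and 122 CPM in the libraries labelled Chaf1a cko 3M (0.92, SE 0.18). The control libraries agreed to within a few CPM, and all 3 others were well above them. Kcnj11, the pore of the ATP-sensitive potassium channel, was at 29.6, 26.4 and 26.1 CPM against 36.8, 47.6 and 58.6 CPM (0.80, SE 0.24). Kcnh2 was among the DESeq2 calls. The median of the list was 0.19 without Ctrl 3M replicate 1 and 0.32 without Ctrl 3M replicate 3.

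Cardiac transcription factors gave no call. Of 31 genes 22 had a log2 fold change above 0, 4 were nominally higher and 0 nominally lower, and 5 were apart and higher (median 0.19). Without Ctrl 3M replicate 3 these were 2 nominally higher and 1 lower, and without Ctrl 3M replicate 1 the median was 0.12 with 5 nominally higher. Myocd, myocardin, a cofactor of serum response factor in heart and smooth muscle, was at 7.69, 6.04 and 4.24 CPM in the controls, against 19.2, 12.96 and 15.5 CPM in the libraries labelled Chaf1a cko 3M (1.41, SE 0.36). Tbx5, a T-box factor of atria and the conduction system, was at 3.10, 9.12 and 5.12 CPM against 14.6, 12.96 and 13.4 CPM (1.23, SE 0.44). These are low counts, and the groups nevertheless did not overlap. Irx3, a homeobox factor of the conduction system, had a log2 fold change of 0.70 (SE 0.27), and Mef2a, the member with the most counts, of -0.36 (SE 0.22). The 13 atrial genes had a median of 0.28 with 3 nominally higher and 0 nominally lower, and their summed share, 1.43% to 1.96% in the controls and 2.69% to 3.02% among the libraries labelled Chaf1a cko 3M, was mostly that of Myh6, which stands in this list too. Their median was 0.58 without Ctrl 3M replicate 1 and 0.175 with 2 nominally higher without Ctrl 3M replicate 3.

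Genes of cardiac stress gave few nominal genes. Of 30 members 1 was nominally higher and 1 nominally lower, at a median of -0.28 that became 0.11 without Ctrl 3M replicate 1. Nmrk2, a kinase of NAD synthesis in muscle, was at 29.5, 9.47 and 12.7 CPM in the controls, against 3.94, 3.46 and 3.88 CPM in the libraries labelled Chaf1a cko 3M (-2.19, SE 0.48), was among the DESeq2 calls and reached the mean of 5 CPM through the controls only. Nppa, which encodes atrial natriuretic peptide, was at 1043, 408 and 952 CPM against 587, 428 and 2293 CPM (0.46, SE 0.74), with the lowest values of both groups close together. Ankrd1, a stress-responsive protein of the sarcomere and the YAP target with the most counts, was at 1471, 273 and 1171 CPM against 522, 1075 and 1143 CPM (-0.09, SE 0.64). The 95% intervals of Nppa (-1.39 to 2.31) and Ankrd1 (-1.67 to 1.49) on the log2 scale span 2-fold changes in both directions.

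**Figure D3:**
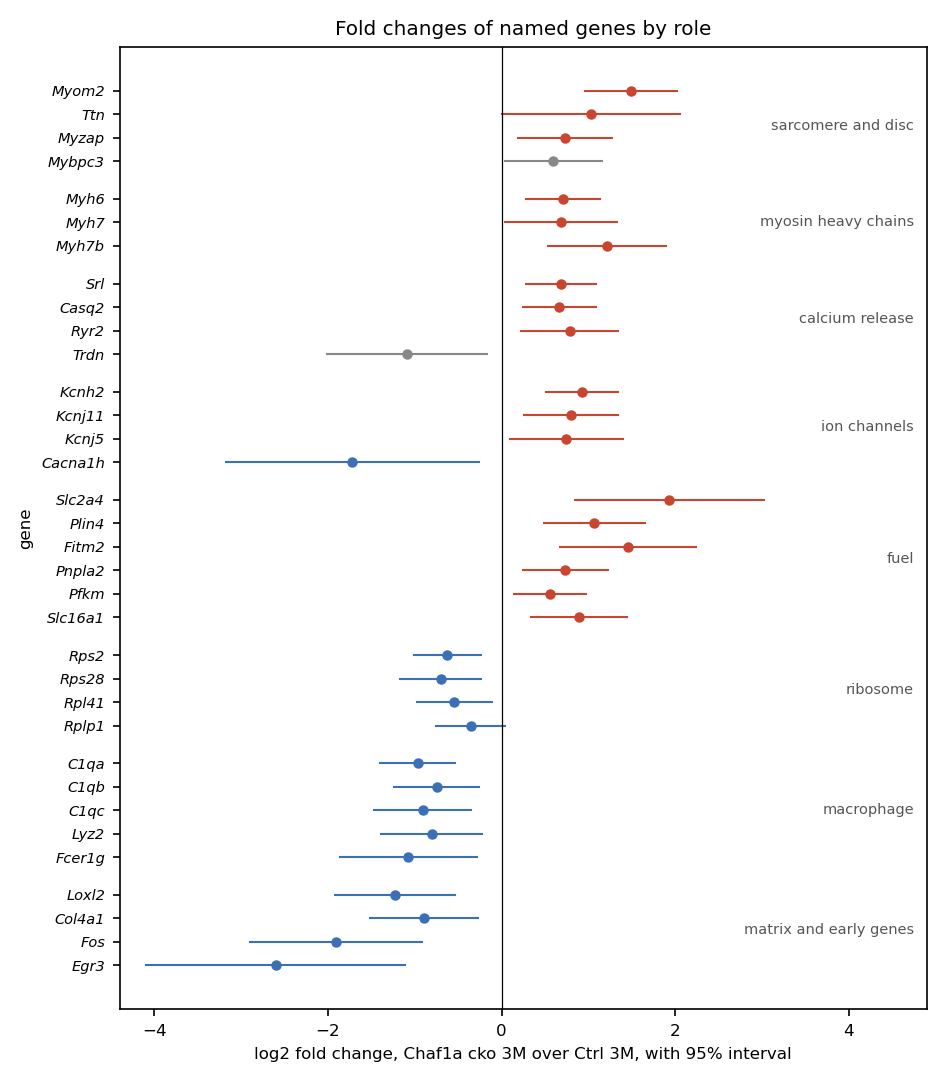
Log2 fold change of Chaf1a cko 3M over Ctrl 3M (points) with its 95% interval from edgeR (lines) for 34 genes in 8 groups by role. Red and blue mark genes whose groups were apart, higher or lower, and grey marks overlapping groups; 0 of these genes passed the adjusted threshold, and the values run from -2.60 for Egr3 to 1.93 for Slc2a4.

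Fuel genes differed gene by gene. Slc2a4, the insulin-sensitive glucose transporter GLUT4, was at 38.8, 18 and 17.98 CPM in the controls, against 47.6, 133.1 and 104 CPM in the libraries labelled Chaf1a cko 3M (log2 fold change 1.93, SE 0.47), apart by a small gap, and was among the DESeq2 calls. Pygb and Pfkl, a glycogen phosphorylase and the liver-type phosphofructokinase, had log2 fold changes of 0.62 (SE 0.20) and 0.65 (SE 0.21). Aldoa, the aldolase of muscle and the gene of glycolysis with the most counts, overlapped (-0.17, SE 0.18). Of 30 genes of glycolysis and glucose uptake 5 were nominally higher and 3 nominally lower, and the median was -0.03. Lipid droplet genes had 3 of 20 nominally higher and 0 nominally lower (median 0.12, and -0.04 without Ctrl 3M replicate 3). Plin4, a perilipin that coats lipid droplets, was at 136, 240 and 233 CPM against 378, 499 and 398 CPM (1.07, SE 0.26). Fitm2, which helps droplets form, was at 5.25, 5.74 and 5.44 CPM against 18.4, 15.9 and 10.95 CPM (1.46, SE 0.34). Pnpla2, the triglyceride lipase ATGL, was at 142, 189 and 164 CPM against 219, 326 and 276 CPM (0.73, SE 0.22). All 3 droplet genes were apart between the groups.

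Fatty acid oxidation and the Krebs cycle gave few nominal genes. Of 42 genes of fatty acid uptake and oxidation 0 were nominally higher and 1 nominally lower, Acsl4, a ligase that activates arachidonic acid (log2 fold change -1.03, SE 0.35), at a median of 0.06. Fabp4, a fatty acid binding gene of endothelium and fat and the member with the most counts, was at 7025, 6329 and 4832 CPM against 6124, 5078 and 4644 CPM (-0.20, SE 0.20). Of 25 Krebs cycle genes 6 were apart and higher and 0 apart and lower, but the only nominal gene was lower, Idh3a, a subunit of isocitrate dehydrogenase (-0.95, SE 0.37, median of the list 0.04). The fatty acid median was 0.18 without Ctrl 3M replicate 3, with 2 nominal genes in each direction, and the Krebs cycle median then was 0.09 with 3 nominally higher. Among 6 ketone body genes Slc16a1, a carrier of lactate and ketone bodies, was at 35.9, 34.5 and 34.1 CPM against 51.4, 56.9 and 85.8 CPM (0.89, SE 0.24). Among 23 cholesterol genes Mvd, an enzyme of the mevalonate pathway, was at 9.47, 6.45 and 9.19 CPM against 19.3, 17.6 and 17.6 CPM (1.12, SE 0.30), and Abca1, the cholesterol exporter, overlapped (-1.16, SE 0.35). In 30 genes of mitochondrial dynamics and import, Mfn2, a fusion protein of the outer membrane, was at 210, 229 and 255 CPM against 355, 356 and 349 CPM (0.61, SE 0.17), while Tomm20, a receptor of the import pore, had a log2 fold change of -0.67 (SE 0.23).

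Ribosomal protein genes were mostly below 0 by small and unequal amounts. Their summed share was 3.86%, 4.36% and 4.62% in the controls and 3.79%, 3.44% and 3.83% among the libraries labelled Chaf1a cko 3M. Of 77 cytosolic ribosomal protein genes 73 had a log2 fold change below 0, 31 were apart and lower, 0 apart and higher, 8 were nominally lower and 0 passed the adjusted threshold. The median was -0.26 (DESeq2 -0.25), against -0.02 over all tested genes. Rps2, a protein of the small subunit, was at 640, 708 and 706 CPM in the controls, against 474, 427 and 430 CPM in the libraries labelled Chaf1a cko 3M (-0.62, SE 0.17). Rps28 was at 259, 227 and 252 CPM against 176, 158 and 119 CPM (-0.70, SE 0.20), and Rpl41, the shortest protein of the large subunit, at 702, 692 and 887 CPM against 463, 529 and 574 CPM (-0.54, SE 0.19). The groups were apart in all 3, and the member with the most counts, Rpl13a, overlapped (-0.11, SE 0.17). Many ribosomal protein genes have near-identical processed copies elsewhere in the genome, so reads could be split between them. The median of the list was -0.31 without Ctrl 3M replicate 1 and -0.19 without Ctrl 3M replicate 3, and 2 members were nominally lower without the latter.

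Respiratory chain and proteasome genes were mostly below 0 too. Of 59 nuclear genes of the respiratory chain 48 were below 0 (median -0.25), 0 were nominally higher and 1 nominally lower, Cox6c, a subunit of cytochrome c oxidase (-0.56, SE 0.24), and the median was -0.06 without Ctrl 3M replicate 3. Of 36 proteasome genes 30 were below 0 (median -0.15), with Psmb3 and Psmb4, subunits of the core particle, nominally lower (-0.45 and -0.46), although 0 proteasome genes were so with library size alone, with DESeq2's Wald test or without Ctrl 3M replicate 3. Lists with a median exon length up to 2836 bases lay on both sides of 0, most of them below. The 7 replication-dependent histone genes, the list with the shortest median exon length at 618 bases, had a median of 0.14. The cardiomyocyte markers, at 2836 bases against 2804 for the proteasome, had one of 0.06. The macrophage markers (1931 bases) had a median of -0.75, the oxidative stress genes (2684 bases) of -0.215 and the replacement histones (2115 bases) of -0.07. No cause of these medians was tested. The log2 fold change varied with exon length across genes. In the fifth of genes with the shortest exon length, up to 2601 bases, the median log2 fold change was -0.08 with 53 nominally higher and 102 nominally lower, and in the fifth with the longest, from 7824 bases, it was 0.01 with 115 and 86. The median exon length was 1781 bases in the ribosomal protein list, 1831 in the respiratory chain list and 4597 over the genes tested. With a trend on exon length removed per library, an alternative chosen after the data were seen, the medians were -0.21 for the ribosomal proteins, -0.19 for the respiratory chain and 0.09 for the adult sarcomere genes, and 4 ribosomal protein genes were nominally lower. The 56 mitochondrial ribosomal proteins had a median of -0.08 with 1 nominal gene in each direction, and without Ctrl 3M replicate 3 the median turned to 0.03 with 3 nominally higher and 1 lower.

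**Figure D4:**
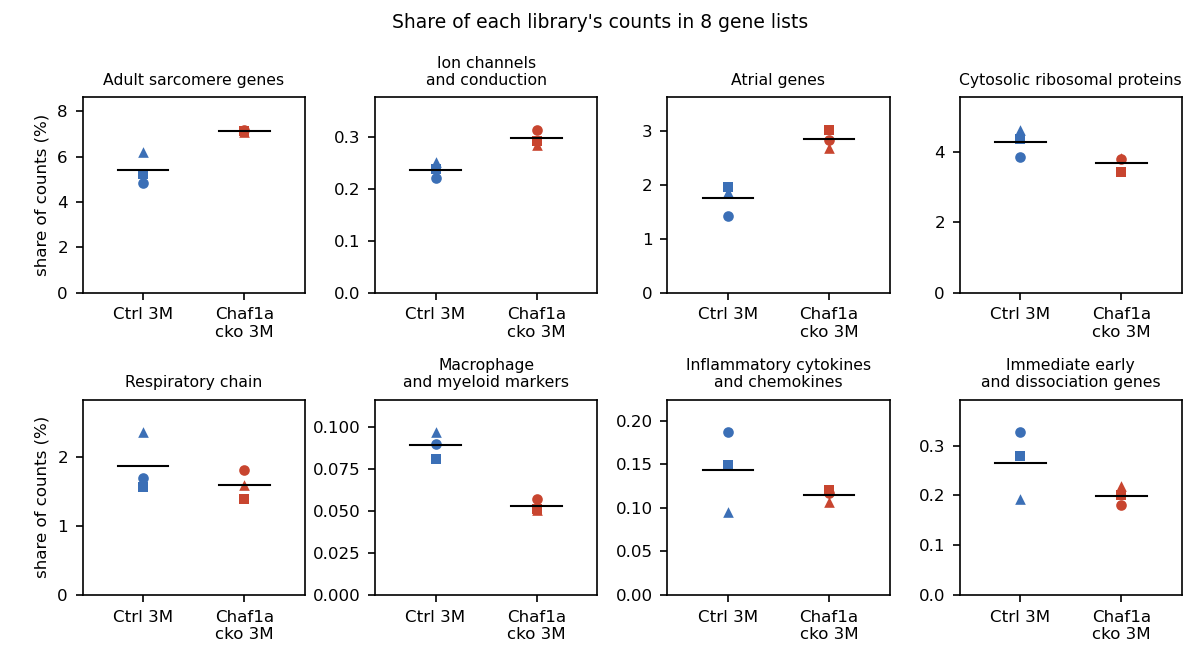
Share of the counts of each library, in percent, that fell on 8 gene lists, with 1 point per library, a symbol per replicate number and a line at the group mean (Ctrl 3M blue, Chaf1a cko 3M red). The sarcomere share lies at 4.82% to 6.22% and 7.08% to 7.17% and the macrophage share at 0.0812% to 0.0971% and 0.0508% to 0.0572%, both without overlap, while the respiratory chain share overlaps. With Myh6 taken out, the sarcomere share overlaps between the groups.

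Macrophage genes were lower in the libraries labelled Chaf1a cko 3M. Their share of the counts was 0.0898%, 0.0812% and 0.0971% in the controls and 0.0572%, 0.0511% and 0.0508% among the libraries labelled Chaf1a cko 3M, so that each library of one label lay apart from each of the other. Of 21 macrophage and myeloid markers 17 had a log2 fold change below 0 and 4 above. Of the 21, 11 were nominally lower and 0 nominally higher, 8 were apart and lower and 0 apart and higher, and 0 passed the adjusted threshold. The median log2 fold change was -0.75. The complement genes C1qa, C1qb and C1qc encode the 3 chains of C1q, which resident macrophages make. C1qa was at 92.1, 91.9 and 102 CPM in the controls, against 56.7, 44.5 and 45.1 CPM in the libraries labelled Chaf1a cko 3M (-0.97, SE 0.19), and DESeq2 called it. C1qb was at 74.3, 51.9 and 66.4 CPM against 34.3, 40.9 and 39.5 CPM (-0.75, SE 0.22) and C1qc at 43.8, 54.9 and 67.5 CPM against 34.6, 24.7 and 29.2 CPM (-0.91, SE 0.24). Lyz2, the lysozyme of myeloid cells, was at 149, 140 and 111 CPM against 92.0, 85.0 and 51.7 CPM (-0.81, SE 0.26). All 4 were apart between the groups. Without Ctrl 3M replicate 1 the median was -0.60 with 9 nominally lower and 1 nominally higher. Without Ctrl 3M replicate 3 it was -0.70 with 7 nominally lower and 0 nominally higher. Of the 14 lymphocyte markers that the table lists 0 reached 5 CPM.

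Inflammatory genes followed the same direction but rested on 1 control library. The 17 cytokines, chemokines and their regulators had a median of -0.87, with 4 nominally lower and 0 nominally higher. The mean log2 level of the list, relative to each gene's mean over the 6 libraries, was 1.10 in Ctrl 3M replicate 1 and 0.14 and 0.11 in replicates 2 and 3, and -0.45, -0.28 and -0.62 in the Chaf1a cko 3M replicates. Without Ctrl 3M replicate 1 the median was -0.17 with 2 nominally lower. Ccl7, a chemokine that attracts monocytes, was at 36.1, 4.38 and 9.27 CPM against 1.13, 0.77 and 1.78 CPM (-3.74, SE 0.84), was among the DESeq2 calls and reached the mean of 5 CPM through the controls only. Tnfaip3, the A20 brake on NF-kB signalling, was at 16.6, 21.1 and 14.7 CPM against 7.31, 8.66 and 8.40 CPM (-1.10, SE 0.30), with all 3 control libraries alike. Of 38 interferon response genes 2 were nominally higher, Ifit3 (0.95, SE 0.28) and its relative Ifit3b (0.58, SE 0.26), and 0 nominally lower, at a median of -0.03.

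Matrix genes were mostly below 0. Of 43 genes of extracellular matrix and fibrosis 37 had a log2 fold change below 0, 5 were nominally lower, 0 nominally higher and 0 past the adjusted threshold (median -0.35, and -0.13 without Ctrl 3M replicate 1). Loxl2, an enzyme that cross-links collagen, was at 30.1, 17.2 and 22.5 CPM in the controls, against 8.62, 10.9 and 10.2 CPM in the libraries labelled Chaf1a cko 3M (-1.23, SE 0.30). Col4a1, a chain of basement membrane collagen, was at 1348, 1356 and 1022 CPM against 762, 824 and 416 CPM (-0.90, SE 0.28). Both were apart between the groups, while Sparc, the member with the most counts, overlapped (-0.06, SE 0.18). Tnc, tenascin C, was at 43.9, 6.63 and 6.71 CPM against 3.37, 1.604 and 4.84 CPM (-2.54, SE 0.88), high in 1 control library only. It reached the mean of 5 CPM through the controls only. Of 19 fibroblast markers 2 were nominally lower, Lum, the proteoglycan lumican (-1.60, SE 0.52), and Vim, vimentin (-0.46, SE 0.20), at a median of -0.22, which was -0.08 with 1 nominally lower without Ctrl 3M replicate 3. Their share of the counts was 0.402%, 0.420% and 0.487% in the controls and 0.348%, 0.362% and 0.418% among the libraries labelled Chaf1a cko 3M, which overlapped.

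Markers of other cell types of the heart were present in both groups. The 24 endothelial markers had a median of -0.02 and shares of 2.13%, 2.20% and 1.45% against 1.79%, 1.81% and 1.86%. Mural and smooth muscle markers had a median of -0.35, with 1 of 15 nominally higher, Myocd, and 1 nominally lower, Mcam (-0.48, SE 0.21), and the median was -0.08 without Ctrl 3M replicate 1. Of 3 epicardial markers of 5 CPM or more, Wt1 was apart and lower as given above and Aldh1a2 and Tbx18 overlapped. The part of other cell types in the differences of the cardiomyocyte genes was not tested.

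Early response genes and chaperones were high in single control libraries. Of 29 immediate early and dissociation genes 25 were below 0 and 2 nominally lower (median -0.38). Fos, the transcription factor induced within minutes of stimulation, was at 28.1, 14.2 and 13.6 CPM in the controls, against 3.94, 3.85 and 7.07 CPM in the libraries labelled Chaf1a cko 3M (-1.91, SE 0.44), and Egr3 was at 35.3, 7.11 and 8.87 CPM against 3.56, 2.57 and 2.29 CPM (-2.60, SE 0.65). Both were apart between the groups and called by DESeq2, and Ctrl 3M replicate 1 was the highest library in each. Egr3 reached the mean of 5 CPM only through the controls, so that its direction is largely set by this minimum. Fos lay at the minimum in the libraries labelled Chaf1a cko 3M, with a mean of 4.95 CPM. Without Ctrl 3M replicate 1 the median of the list was -0.20, and 3 genes were nominally lower, while without Ctrl 3M replicate 3 these were -0.52 and 10. Of 30 chaperones of the endoplasmic reticulum and heat shock response 0 were nominal (median -0.34, and -0.12 without Ctrl 3M replicate 1, and 10 nominally lower without Ctrl 3M replicate 3). Hspa1b, the inducible HSP70, was at 187, 24.7 and 6.79 CPM against 6.94, 7.57 and 11.6 CPM.

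Hox and imprinted genes gave small counts with wide gaps. Of 30 Hox genes 2 reached a mean of 5 CPM, and both did so only through the controls, so that their lower level in the other libraries is largely set by this minimum. Hoxb4 was at 8.44, 7.22 and 19.2 CPM in the controls, against 2.34, 0.77 and 1.08 CPM in the libraries labelled Chaf1a cko 3M (-3.07, SE 0.63), and Hoxb3, its neighbour in the cluster, at 9.19, 10.4 and 14.7 CPM against 2.91, 3.08 and 5.09 CPM (-1.62, SE 0.42). Neither passed in edgeR. The annotated span of Hoxb3 contains that of Hoxb4, so reads could be shared between them. Of 18 imprinted and growth genes 1 was nominally higher and 2 nominally lower. Mest, a paternally expressed growth gene, was at 65.4, 56.1 and 48.4 CPM against 35.4, 29.8 and 31.6 CPM (-0.81, SE 0.21). Airn, the noncoding RNA antisense to Igf2r, was at 14.3, 18.2 and 19.7 CPM against 10.9, 4.68 and 7.96 CPM (-1.15, SE 0.38), and Kcnq1ot1, the noncoding RNA antisense to Kcnq1, at 27.2, 21.3 and 19.2 CPM against 49.9, 27.9 and 37.2 CPM (0.76, SE 0.28). Both RNAs overlap coding genes on the other strand, whose reads could be counted with them where strand was not used. Mhrt, whose annotated span overlaps that of Myh7, had a log2 fold change of 1.01 (SE 0.37), with values that overlapped between the groups.

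Most replication-dependent histone genes and mitosis genes lay below the minimum of 5 CPM, while most genes of S phase and cytokinesis reached it. Of 49 replication-dependent histone genes that the table lists 7 reached 5 CPM, and 0 of them were nominal (median 0.14). Of 60 genes of G2 and mitosis 12 reached it, and the only nominal one was Cenpf, a kinetochore protein, at 1.501, 4.26 and 2.72 CPM in the controls, against 35.7, 5.005 and 9.04 CPM in the libraries labelled Chaf1a cko 3M (2.53, SE 0.79), where a single library was high. Cenpf reached the mean of 5 CPM only through the libraries labelled Chaf1a cko 3M, so that its direction is largely set by this minimum. Of 54 genes of S phase and DNA synthesis 35 reached it, with 0 nominal (median -0.04). Among 24 CAF-1 subunits and histone chaperones Atrx, a chromatin remodeller that helps to place histone H3.3, was nominally lower at 660, 259 and 332 CPM against 257, 236 and 195 CPM (-0.86, SE 0.34), and Cabin1, a partner of the HIRA chaperone, nominally higher at 83.4, 109 and 103 CPM against 124, 133.4 and 154 CPM (0.48, SE 0.19). H3f3a, one of the genes of histone H3.3, was at 1133, 478 and 615 CPM against 493, 376 and 364 CPM (-0.85, SE 0.32), with an overlap. Without Ctrl 3M replicate 1, the highest library in Atrx, H3f3a and Rock1, 0 histone chaperones were nominal, and the median of 10 replacement histone genes turned from -0.07 to 0.10 with 0 nominal. Of 26 genes of G1 cyclins and cell-cycle exit 2 were nominally lower, Tfdp1, the partner of E2F factors (-0.89, SE 0.28), and Rbl1, the retinoblastoma relative p107 (-0.92, SE 0.35), and without Ctrl 3M replicate 1 the median turned from 0.01 to -0.155 with 1 nominal gene in each direction. Of 19 cytokinesis genes 1 was nominally lower, Rock1, a kinase of the contractile ring, at 803, 231 and 364 CPM against 224, 140 and 130 CPM (-1.50, SE 0.48). Of 34 p53 targets 2 were nominally higher, Gadd45a, a growth arrest gene (0.87, SE 0.36), and Tigar, a regulator of glycolysis (0.54, SE 0.23), and 1 was nominally lower, Plk3, a stress-responsive kinase (-1.16, SE 0.41). None of the p53 targets was nominal without Ctrl 3M replicate 1, and the median moved from 0.07 to 0.15. The 29 heterochromatin and DNA methylation genes had 0 nominal genes and a median of 0.07.

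The 56 lists held 1174 different genes of 5 CPM or more, and 0 of these passed the adjusted threshold; the smallest adjusted p was 0.282 for Myom2 in edgeR. In single genes of the other lists, Rbm20, the splicing factor of titin, was at 366, 408 and 385 CPM in the controls, against 545, 648 and 562 CPM in the libraries labelled Chaf1a cko 3M (log2 fold change 0.60, SE 0.17). Trim55, a ubiquitin ligase of the M-band (MuRF2), was at 16.6, 18.5 and 10.7 CPM against 35.2, 25.99 and 28.5 CPM (0.97, SE 0.29). Bhlhe40, a repressor in the circadian clock, was at 127, 138 and 75.1 CPM against 68.3, 64.0 and 59.9 CPM (-0.83, SE 0.25). The groups were apart in all 3. Gpx1 and Gstm1, enzymes of glutathione defence, lay in opposite directions at log2 fold changes of -0.47 (SE 0.18) and 0.49 (SE 0.19). Lists of hypoxia (17 genes), stress response and one-carbon metabolism (19 genes), ubiquitin ligases and autophagy (20 genes) and the nuclear envelope (16 genes) had at most 2 nominal genes each and medians from -0.10 to 0.02. Medians near 0 turned sign with a control library left out in other lists too, for example to 0.04 for glycolysis, to 0.05 for mitochondrial dynamics and to 0.04 for the interferon response without Ctrl 3M replicate 3, and to 0.03 for the endothelial markers and -0.03 for G2 and mitosis without Ctrl 3M replicate 1. The cholesterol median of 0.13 was 0.03 without Ctrl 3M replicate 3 and 0.05 without Ctrl 3M replicate 1.

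**Figure D5:**
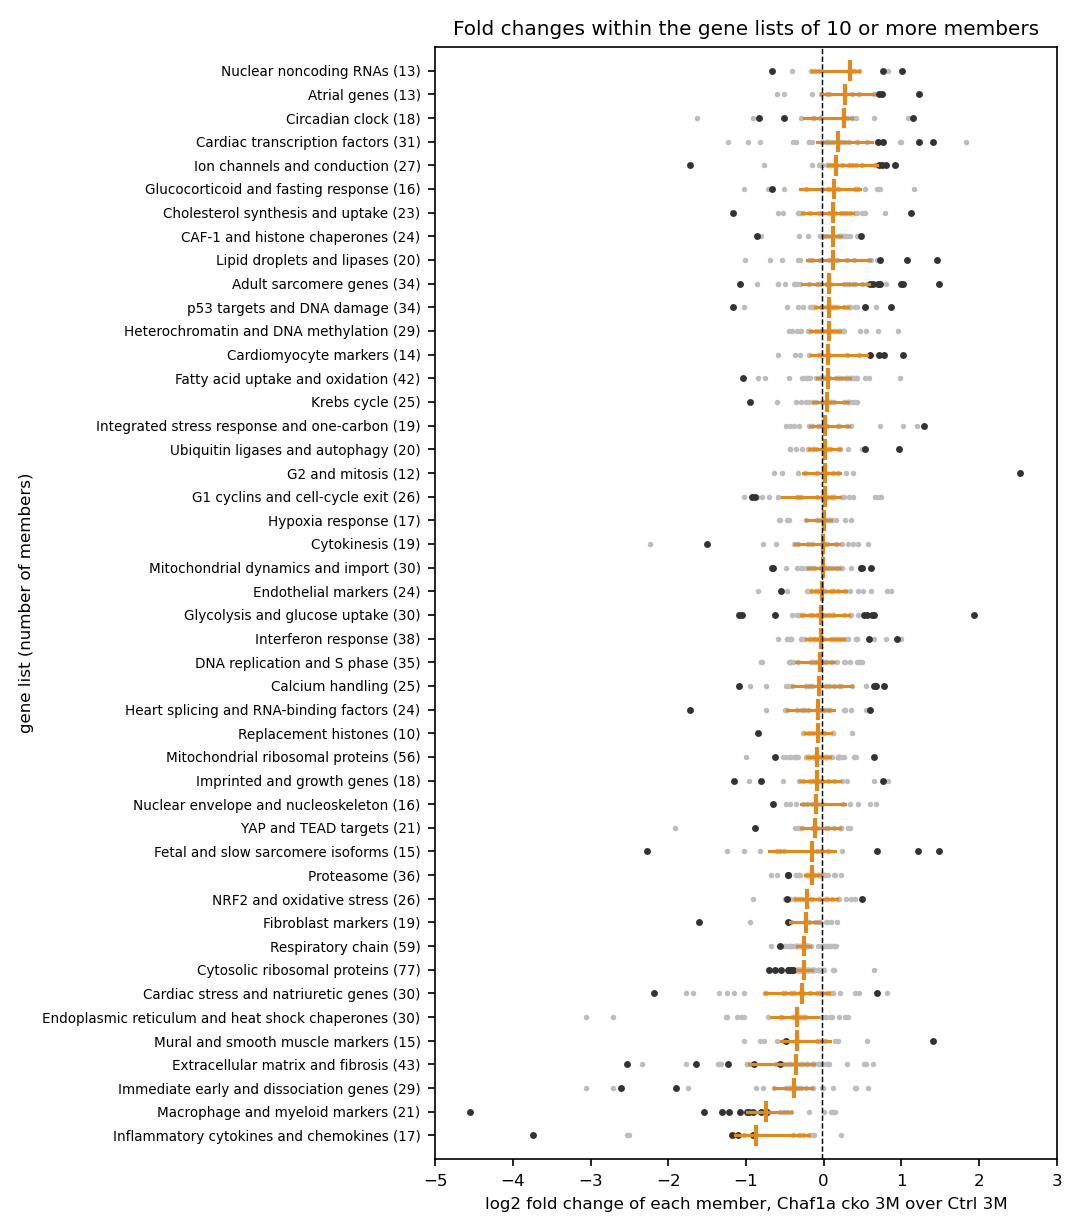
Log2 fold change of each gene of 5 CPM or more in the lists with 10 or more such genes, ordered by median; dark points have an unadjusted p under 0.05, orange bars span the quartiles with a tick at the median, and the dashed line is the median of -0.02 over all genes of this level. Inflammatory genes (-0.87) and macrophage markers (-0.75) have the lowest medians and nuclear noncoding RNAs (0.34) the highest.

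Some RNAs with many counts and a set of switching genes show how single libraries differed. Neat1, the scaffold RNA of paraspeckles, was at 13920, 14910 and 18540 CPM in the controls, against 21210, 19630 and 19280 CPM in the libraries labelled Chaf1a cko 3M (0.34, SE 0.18), apart by a small gap. Rn45s, the ribosomal RNA precursor left after depletion, was at 34300 CPM in Ctrl 3M replicate 3 and at 11170 to 13450 CPM in the other 5 libraries. Ereg, an epidermal growth factor ligand, was at 176 CPM in Ctrl 3M replicate 1 and at 0.844 CPM or less elsewhere, and Samsn1, an adaptor of immune cells, at 124 CPM there and at 2.24 CPM or less elsewhere. In 79 genes of 5 CPM or more a library had 3 or fewer counts while another had 100 or more. Of these genes 64.1% overlap another gene in the annotation, against 47.0% of all genes of this level, and in 8 the groups did not overlap. Akap2 was at 0, 186 and 0 CPM in the controls, against 51.4, 98.2 and 72.4 CPM in the libraries labelled Chaf1a cko 3M. The globin genes, carried by red cells, switched between near-identical copies, and summed over the alpha copies they were at 638, 388 and 1020 CPM of the library total in the controls, against 2360, 2200 and 451 CPM in the libraries labelled Chaf1a cko 3M. Values of single globin copies are uncertain for this reason.

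The effect of the label was also set beside that in the first count table of the study, which holds 3 libraries labelled Ctrl and 3 labelled Chaf1a cko and was normalized apart. A fit of all 12 libraries tested the difference of both log2 fold changes in 22803 genes, and 7 of the genes of 5 CPM or more passed at an adjusted p under 0.05 in edgeR. This fit shares the spread of each gene between the tables. For Psme4 the SE of the difference, 0.158, was below that of the 3M effect alone, 0.176. The p-values of the difference may therefore be too small. In the first table Apbb2 was at 123 ± 7.30 CPM in its controls and at 118 ± 5.30 CPM in its libraries labelled Chaf1a cko (SD, n = 3 each), and the log2 fold changes differed by 4.13 (SE 0.35, adjusted p 0.00259 in edgeR). Map2k4 was at 79.7 ± 7.79 and 74.7 ± 2.52 CPM there, a difference of effect of 2.24 (SE 0.24, adjusted p 0.0120 in edgeR). Suco was at 61.1 ± 9.38 and 65.2 ± 9.49 CPM there, Coq8a at 93.7 ± 10.7 and 100 ± 14.8 CPM, Psme4 at 178 ± 12.5 and 164 ± 10.6 CPM and Slc38a10 at 78.2 ± 19.8 and 78.6 ± 16.1 CPM (SD, n = 3 each). In the first table none of these 6 genes had a log2 fold change beyond 0.12 in size. Myom2 passed in the first table too, at 393 ± 11.3 and 509 ± 21.5 CPM (log2 fold change 0.37, SE 0.05, adjusted p 0.000120 in edgeR), and its effects in the tables differed by 1.15 (SE 0.23, adjusted p 0.143 in edgeR). Wt1 was at 45.1 ± 1.61 and 45.1 ± 4.61 CPM in the first table (SD, n = 3 each), and its difference of effect of -1.87 did not pass (adjusted p 0.179 in edgeR). The count of 7 genes moved between 1 and 57 when single libraries were left out, with 57 without Ctrl 3M replicate 2, 44 without Ctrl 3M replicate 3, 19 without Chaf1a cko 3M replicate 1, 4 without Ctrl 3M replicate 1, 3 without Chaf1a cko 3M replicate 3, and 1 or 2 without any single library of the first table.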

How the data were processed

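The members and the gene lists were chosen with earlier results of these data known. The deposited table holds raw read counts per gene symbol, which the authors made from stranded, ribosome-depleted libraries. The submitters' processing notes name FastQC, Trimmomatic, HISAT2 and the mm10 build. The sources used here do not name the counter, its annotation or its strand option.

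Here genes were kept with edgeR's filterByExpr (minimum count 10, minimum total 15), scaled by TMM, and tested with edgeR 4.0.16 (R 4.3.3) by the robust quasi-likelihood test on the 6 libraries of the 3M table, without a block, with Benjamini-Hochberg adjustment over all 13925 tested genes and a threshold of 0.05. Levels are CPM of TMM-scaled library sizes unless given as CPM of the library total, which set the minimum of 5 CPM. Totals of 10569325 to 16445963 counts set the precision. Intervals are 95% intervals of the fit. List shares are over all listed symbols in the table. No 2 libraries were copies: at most 0.392% of genes had equal counts over the 15 pairs.

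The genes named were Chaf1a, both called genes, the 8 higher and 8 lower genes with the smallest p and no overlap, per list the 3 genes with the smallest p and the one with the most counts, those with the largest shares of counts or first-component loadings, and the threshold neighbours. Any further gene was chosen after seeing its values. Some genes that the rule names are not reported here. The alternatives tried were other scalings, DESeq2 1.42.0, limma 3.58.1, other filters, a replicate block and each library left out. Tested on simulated data (13516 genes), the method recovered 3 of 100 genes changed 2-fold and 55 of 100 changed 4-fold, with 6 false calls. Symbols were matched to RefSeq GRCm38.p6 (25146 of 25239) and to GENCODE exon lengths (24725). Figures were drawn with matplotlib 3.10.9.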

Additional observations from a re-analysis of the deposited data

Results flagged for a closer look

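The effect of the label differed between the 3M table and the first table by the test of the difference in 6 named genes, with the 3M effect minus the first given on the log2 scale and adjusted p from edgeR's quasi-likelihood test. The difference was 4.13 for Apbb2 (adjusted p 0.00259) and 2.24 for Map2k4 (adjusted p 0.0120). It was 2.93 for Suco, 1.65 for Coq8a, 1.11 for Psme4 and -2.14 for Slc38a10, at an adjusted p of 0.0487 each. The fit shares the spread of each gene between the tables, so these p-values may be too small. Of these genes only Apbb2 and Slc38a10 passed in the 3M table alone, where Psme4 had an adjusted p of 0.416 in edgeR.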

How the results depend on the processing

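The counts of 1 higher and 1 lower gene kept their values with DESeq2 size factors, library size alone, upper quartile scaling, limma voom with quality weights, a 10 CPM filter and the 2 alternatives chosen after the data were seen, which removed a trend on exon length and left out the 79 switching genes. DESeq2's Wald test gave 24 higher and 43 lower, no filter 4 higher, and no robust estimation 0 lower. With a replicate block there were 0 higher and 0 lower, and the difference between the tables gave 0 genes. Whether the replicate numbers pair the libraries is not stated and cannot be told from these values. Deviations of same-numbered libraries correlated at only 0.026, 0.029 and 0.019, while each library correlated best with its own number. Leaving out single libraries gave 0 to 4 higher and 0 to 2 lower genes, 259 to 509 nominally higher and 272 to 673 nominally lower genes (411 and 486 with all libraries), and 1 to 57 genes for the difference between the tables (7 with all). That difference gave 3 genes with library size alone. The log2 fold change of Chaf1a reversed to -0.16 without Ctrl 3M replicate 1 and was up to 0.958 without Ctrl 3M replicate 3; the cause was not tested. At this spread the simulation recovered 3 of 100 2-fold changes, so most such changes were not detectable.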
